A study of Mus musculus with 12 samples.

Results

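The subcortical maternal complex genes described here are Nlrp5, Ooep, Tle6, Khdc3, Padi6, Nlrp2 and Zbed3. They were taken by gene symbol as a named list and not by a cut on measured values. The list was, however, chosen with earlier results of these data known. All 7 were found among the 24562 genes counted, and all 7 passed the filter on low counts that left 13943 genes for testing. The data were RNA-Seq read counts of oocytes taken from antral follicles of CD-1 mice, an outbred strain, whose ovaries had not been stimulated with hormones and whose cumulus cells had been removed mechanically. The 4 cohorts were mice of PND 13 (PND, postnatal day), lighter mice of PND 16 (PND 16 Small), heavier mice of that age (PND 16 Large) and mice of PND 40, with 3 pools of 18 to 45 oocytes per cohort, so each value is the average of a pool and not of 1 oocyte. The study treats PND 16 Large and PND 40 oocytes as competent. Competent oocytes can leave prophase arrest in culture and mature to the egg stage, metaphase II. PND 13 and PND 16 Small oocytes are treated as lacking this competence (non-competent). Competence was assigned by cohort and not measured on the sequenced oocytes. At PND 16 the split by weight rests on culture results from a small number of mice, which the study did not show. The groups also differ in age and body weight, which cannot be told apart from competence here.

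The subcortical maternal complex is a protein assembly that gathers beneath the plasma membrane of the growing mammalian oocyte and is passed on to the early embryo. Its core is built from NLRP5 (also called MATER), OOEP (FLOPED) and TLE6, to which KHDC3 (FILIA) binds. When the mother lacks the gene, so that her oocytes lack the product, loss of several of these stops mouse embryos at the earliest cleavages. PADI6, a member of the peptidylarginine deiminase family, is needed for the cytoplasmic lattices, the fibrous stores of the oocyte in which proteins of the complex are also found. NLRP2 is a relative of NLRP5, and ZBED3 is a zinc finger protein that associates with the complex and bears on where the spindle divides the zygote.

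In the mm10 build (GRCm38, GENCODE M21 gene models) the genes lie at separate places. Nlrp5 spans chr7:23385889-23441922 on the forward strand and Nlrp2 spans chr7:5298547-5351035 on the reverse strand. Ooep lies at chr9:78376109-78378725 on the reverse strand and Khdc3 at chr9:73101836-73104438 on the forward strand. Tle6 lies at chr10:81590904-81601073 (reverse), Padi6 at chr4:140727355-140742643 (reverse) and Zbed3 at chr13:95323612-95337841 (forward). Of Khdc3, 1609 exon bases lie within the span of the predicted gene Gm20509 on the same strand. Of Nlrp2, 105 and 33 exon bases lie within the spans of Gm18757 and Gm5065 on the opposite strand. Overlap with exons of those genes was not examined, and the strand setting of counting is not given. Whether any reads of these stretches belong to the other gene is thus not known.

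The DNA just upstream of the 4 genes that passed the test in competent vs. non-competent oocytes, Nlrp5 and Padi6 downward and Ooep and Zbed3 upward, is shown to place the oocyte transcription factor motifs in it. E-boxes (CANNTG) are bound by basic helix-loop-helix factors such as FIGLA and SOHLH1, and TAATTG and TAATTA are bound by homeobox factors such as NOBOX. The stretches are from RefSeq promoters of GRCm38.p6 (the reference strain, not CD-1), read 5′ to 3′ on the strand of the gene, with matches to these motifs on either strand in capitals.
Nlrp5, chr7:23385689-23385888: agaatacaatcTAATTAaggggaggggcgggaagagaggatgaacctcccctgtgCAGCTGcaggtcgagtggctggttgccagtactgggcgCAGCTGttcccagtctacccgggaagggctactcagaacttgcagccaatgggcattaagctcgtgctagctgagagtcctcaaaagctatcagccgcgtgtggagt
Padi6, chr4:140742644-140742843: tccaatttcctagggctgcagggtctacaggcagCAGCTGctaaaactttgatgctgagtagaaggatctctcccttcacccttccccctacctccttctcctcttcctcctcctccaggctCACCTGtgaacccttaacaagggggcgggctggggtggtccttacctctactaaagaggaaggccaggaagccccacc
Ooep, chr9:78378726-78378838: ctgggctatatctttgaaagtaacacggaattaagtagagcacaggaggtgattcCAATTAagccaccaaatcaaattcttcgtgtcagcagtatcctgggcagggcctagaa
Zbed3, chr13:95323405-95323604: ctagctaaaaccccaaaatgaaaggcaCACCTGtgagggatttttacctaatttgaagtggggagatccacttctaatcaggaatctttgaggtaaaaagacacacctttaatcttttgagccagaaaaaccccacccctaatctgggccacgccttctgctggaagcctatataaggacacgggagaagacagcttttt
The Nlrp5 stretch holds a pair of E-boxes, 145 and 107 bases before the start, and a TAATTA 189 bases before it. Padi6 has E-boxes 166 and 78 bases before its start, and Zbed3 has an E-box 173 bases before its start. Ooep has a TAATTG on the other strand 195 bases before its RefSeq start. The Ooep stretch stops at the GENCODE start, 137 bases before the RefSeq start, so an E-box 78 bases before the RefSeq start is not shown. Also outside the stretches lie E-boxes 246 and 209 bases before the Zbed3 start and a TAATTG 8 bases past the Padi6 start. No TAATTG or TAATTA in these stretches shares a base with an E-box. The 7 members had 11 RefSeq windows of 300 bases, of which 10 held an E-box, against 72.3% of all 32851 windows. TAATTG was found in 2 of the 11 windows (8% of all) and TAATTA in 1 (5.29%). TATAAA, a form of the TATA box, was in 2 (13.6%), both at other starts of Nlrp5 and Zbed3 than those shown. Only these exact letters were searched, so a close form such as the tatataag in the Zbed3 stretch shown was not counted. A match describes letters only and is not evidence of a bound site.

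Total counts ranged from 17671193 to 27418358 per pool, and TMM scaling factors from 0.955 to 1.07. Oocyte markers were abundant in every pool, with a summed level of 9 genes (Gdf9, Bmp15, Zp1 to Zp3 and others) of 14199 to 17447 CPM (counts scaled to library size by TMM, in CPM units). Granulosa and cumulus markers (12 genes) summed to 400, 130 and 461 CPM in the PND 13 pools, 185, 414 and 246 in PND 16 Small, 170, 177 and 185 in PND 16 Large and 151, 160 and 144 in PND 40. Of these 12 genes, 3 were called lower and 0 higher in competent oocytes by edgeR. No granulosa marker was at 0 in any pool, with Foxl2 at 0.391 to 20.02 CPM and Amh at 0.389 to 33.5 CPM. Nr5a2 was at 87.9 to 146 CPM and so made up a large part of the lowest sums. Kitl was at 10.8 to 53.6 CPM and Cyp19a1 at 12.7 to 24.3 CPM. Theca markers (6 genes) summed to 9.83 to 33.7 CPM and endothelial markers (4 genes) to 85.2 to 107 CPM, the latter mostly Pecam1 and Tek, with Cdh5 at 0.143 CPM or less. The leukocyte sum was at most 3.04 CPM, and all 3 erythroid markers were at 0 in every pool. The 7 members together took 1.22% to 1.75% of a pool's counts. CPM is relative to all RNA counted, so less of a transcript per oocyte and more of other RNA cannot be told apart in these pools, and p-values measure the spread between pools, which the labels do not tie to separate animals.

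Between genes, levels were compared as mean CPM per kilobase of merged exon. In PND 13 oocytes Padi6 (1998 ± 336, SD, n = 3 pools) and Zbed3 (1814 ± 18.3) were the highest, and their pools overlapped. Tle6 followed at 579 ± 98.4 CPM per kilobase, then Nlrp5 at 437 ± 125.0, Khdc3 at 400 ± 50.02, Ooep at 293 ± 32.7 and Nlrp2 at 151 ± 7.58. Tle6 overlapped with Nlrp5 and Nlrp5 with Khdc3, whereas Zbed3 and Tle6, Khdc3 and Ooep, and Ooep and Nlrp2 were separate in every pool.

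By PND 40 the order had changed. Zbed3 led at 2094 ± 67.5 CPM per kilobase, Padi6 stood at 1193 ± 63.5 and Tle6 at 495 ± 16.0, and Ooep (366 ± 5.41) was now above Khdc3 (301 ± 13.7) and Nlrp5 (256 ± 13.8), with Nlrp2 lowest at 148 ± 6.41. No neighbouring pair overlapped in the PND 40 pools. Dividing by the longest transcript in place of merged exons put Khdc3 (367 CPM per kilobase) level with Ooep (366) at PND 40, so that part of the order depends on the gene model.

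**Figure D1:**
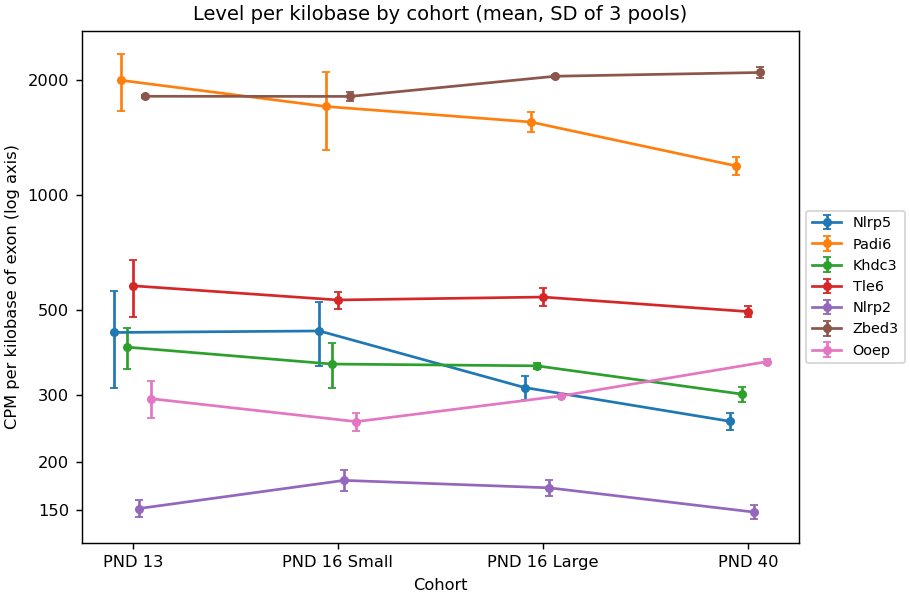
Mean level per kilobase of merged exon (CPM per kilobase, log axis) of the 7 genes in the 4 cohorts, with bars of 1 SD over 3 pools. Padi6 and Nlrp5 lose rank from PND 13 to PND 40, while Zbed3 and Ooep gain rank.

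Nlrp5 had the largest fold change of the 7 genes between competent and non-competent oocytes. This gene encodes MATER, a core protein of the complex without which embryos do not pass the earliest cleavages. Its level was 1644, 2799.8 and 1906 CPM in the PND 13 pools, 2526, 1707 and 2175 CPM in the PND 16 Small pools, 1524, 1406 and 1626 CPM in the PND 16 Large pools, and 1175, 1235 and 1308 CPM in the PND 40 pools. Every competent pool lay below every non-competent pool, but the highest competent pool (1626) and the lowest non-competent pool (1644) nearly touched. The non-competent cohorts were also the more variable, with means of 2117 ± 606 and 2136 ± 411 CPM, against 1519 ± 110.1 and 1239 ± 66.7 CPM in PND 16 Large and PND 40.

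In competent vs. non-competent oocytes Nlrp5 fell by 0.62 on the log2 scale (SE 0.13, 95% CI -0.90 to -0.35, edgeR adjusted p = 0.00251). It was the only member called, that is, at least 1.5-fold different with an adjusted p no higher than 0.05, while 15% of all genes tested were called (11.2% lower). It fell by 0.77 (SE 0.18, edgeR adjusted p = 0.00754) when PND 40 was set against PND 13. Against PND 16 Small the PND 40 pools were lower by a log2 fold change of -0.79 (SE 0.18, edgeR adjusted p = 0.00777). The fall in competent oocytes lay close to the 1.5-fold limit. Without PND 13 replicate 2, PND 16 Small replicate 1 or PND 40 replicate 1 it was -0.54, -0.57 and -0.58, which is under 1.5-fold, with edgeR adjusted p of 0.00404, 0.00668 and 0.00782. Without PND 13 replicate 2, the PND 40 vs. PND 13 value was -0.54 (edgeR adjusted p = 0.00968), also under 1.5-fold.

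Ooep moved the other way. It encodes FLOPED, a small KH-domain-like protein of the core. Its level was 589, 707 and 583 CPM in the PND 13 pools, 572, 513 and 551 CPM in PND 16 Small, 638, 633 and 639.7 CPM in PND 16 Large, and 795, 773 and 779 CPM in PND 40. The PND 40 pools were above all 9 others, while PND 16 Large lay within the range of PND 13. Against PND 16 Small, Ooep rose at PND 40 by 0.52 on the log2 scale (SE 0.08, edgeR adjusted p = 0.00032). The rise was 0.32 against PND 13 (SE 0.08, edgeR adjusted p = 0.00579) and 0.30 against PND 16 Large (SE 0.08, edgeR adjusted p = 0.0342). None of these reached 1.5-fold. The last of them did not pass without any single one of the 6 pools compared (edgeR adjusted p = 0.0944 to 0.120). In competent vs. non-competent oocytes the rise was 0.28 (edgeR adjusted p = 0.0257), and with total counts alone as scaling it was 0.24 (edgeR adjusted p = 0.0707). It also did not pass without any 1 of the 3 PND 40 pools (edgeR adjusted p = 0.0587 to 0.0621) or without PND 16 Small replicate 2 or 3 (0.0621 and 0.0520).

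Tle6, the third core gene, encodes a relative of the Groucho (TLE) family of corepressors. Its level was 1491, 2098 and 1771 CPM in PND 13, 1693, 1544 and 1684 CPM in PND 16 Small, 1771, 1608 and 1630.2 CPM in PND 16 Large and 1499, 1586 and 1502 CPM in PND 40. The PND 13 pools alone spanned the values of all other cohorts. By edgeR on all 12 pools Tle6 passed the test in none of the 7 comparisons, its largest difference being -0.22 in PND 40 vs. PND 13 (95% CI -0.44 to -0.01, edgeR adjusted p = 0.102). That difference passed without PND 13 replicate 1 (-0.34, edgeR adjusted p = 0.0122) and with total counts alone as scaling (-0.30, edgeR adjusted p = 0.032).

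Khdc3 encodes FILIA, a KH-domain protein recruited to the complex and known for guarding genome stability in the early embryo. It was at 705, 903 and 850.2 CPM in PND 13, 854, 686 and 680.1 CPM in PND 16 Small, 735, 742 and 719 CPM in PND 16 Large and 644, 619.8 and 588 CPM in PND 40. All PND 40 pools were below all 9 others. Khdc3 fell by 0.41 in PND 40 vs. PND 13 (SE 0.10, edgeR adjusted p = 0.00702), a change under 1.5-fold. In competent vs. non-competent oocytes its difference was -0.21 (95% CI -0.40 to -0.02, edgeR adjusted p = 0.0893). Among the alternatives that difference passed only as a contrast of the cohort means (edgeR adjusted p = 0.0298) and without PND 16 Small replicate 3 (0.0424). In PND 40 vs. PND 16 Small it was -0.26 (edgeR adjusted p = 0.0632, DESeq2 adjusted p = 0.0306).

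**Figure D2:**
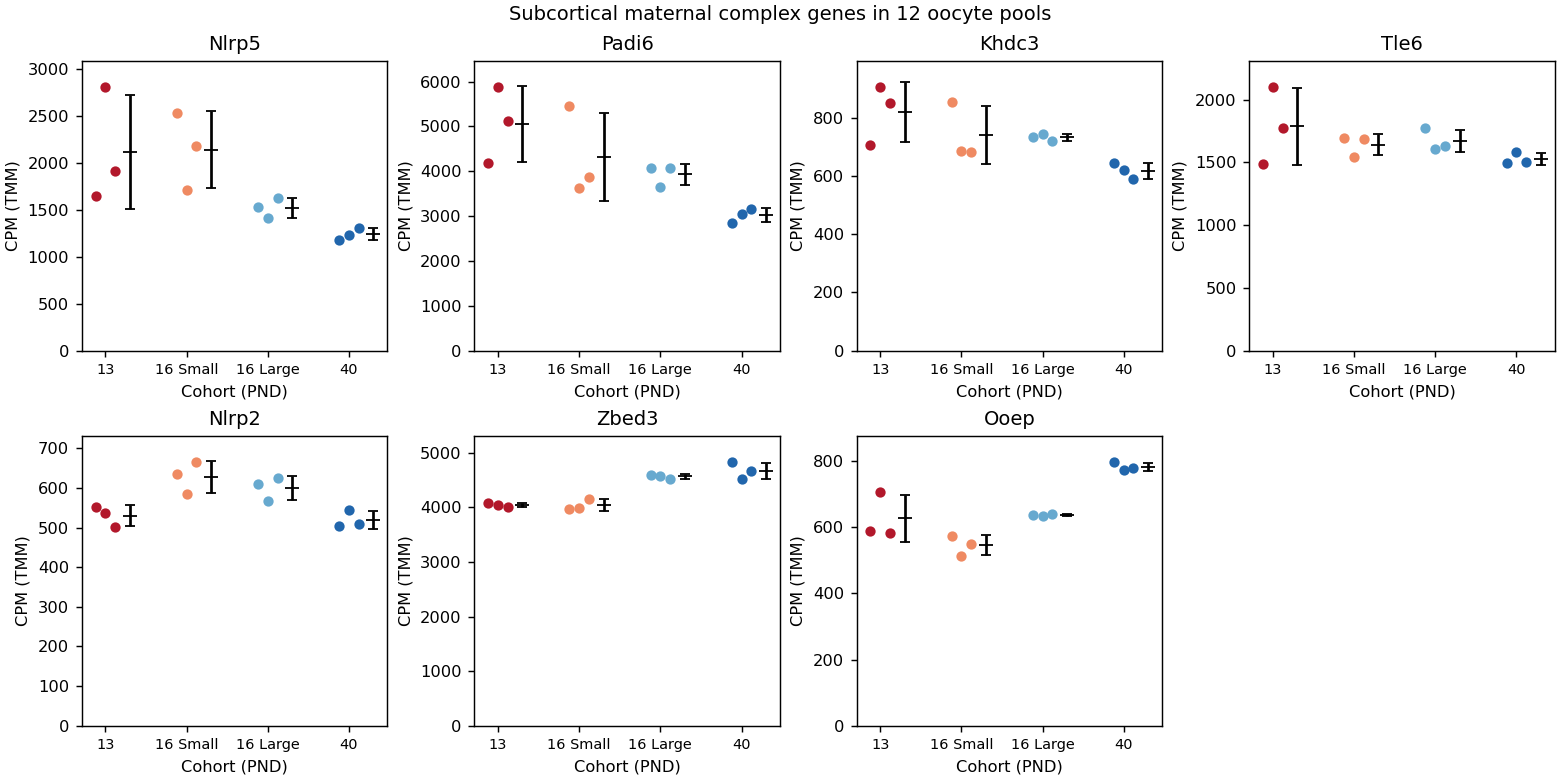
Level of each gene (TMM-scaled CPM, axes starting at 0) in the 12 pools, a point per pool, with the mean and SD of 3 pools beside each cohort. Nlrp5, Padi6 and Khdc3 are lowest in PND 40, Ooep is highest in PND 40, and Zbed3 is higher in both competent cohorts.

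Padi6, needed for the cytoplasmic lattices, was lowest at PND 40. Its level was 4176, 5870.3 and 5132 CPM in the PND 13 pools, 5456, 3634 and 3869 CPM in PND 16 Small, 4071, 3658 and 4071 CPM in PND 16 Large and 2845, 3051 and 3162 CPM in PND 40. The PND 40 pools were the lowest of all, and PND 16 Large overlapped with PND 16 Small but not with PND 13. Padi6 fell by 0.74 in PND 40 vs. PND 13 (SE 0.15, 95% CI -1.07 to -0.42, edgeR adjusted p = 0.0024) and was called there. It fell by 0.52 in PND 40 vs. PND 16 Small (SE 0.15, edgeR adjusted p = 0.0193) and by 0.43 in competent vs. non-competent oocytes (SE 0.13, edgeR adjusted p = 0.0211), both under 1.5-fold. The PND 40 vs. PND 16 Small value did not pass without PND 16 Small replicate 1 (-0.31, edgeR adjusted p = 0.0555), PND 40 replicate 1 (-0.47, 0.0742) or PND 40 replicate 2 (-0.52, 0.0545). Without any 1 of the 3 PND 40 pools, the competent vs. non-competent value was -0.38 to -0.40 with edgeR adjusted p between 0.0501 and 0.0526.

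Nlrp2, a paralog of Nlrp5 whose product in the oocyte also matters for the early embryo, did not follow Nlrp5. It stood at 552, 538 and 501 CPM in PND 13, 636, 584 and 664 CPM in PND 16 Small, 609, 567 and 625 CPM in PND 16 Large and 503, 544 and 508 CPM in PND 40. Both PND 16 cohorts were above both PND 13 and PND 40 in every pool. Nlrp2 fell by 0.28 in PND 40 vs. PND 16 Small (SE 0.07, edgeR adjusted p = 0.00963), and its difference in PND 16 Small vs. PND 13 was 0.24 (SE 0.07, edgeR adjusted p = 0.0836; DESeq2 adjusted p = 0.0216). Between PND 40 and PND 13 the difference was -0.03 (95% CI -0.18 to 0.12).

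Zbed3 varied little between the pools of a cohort. Its level was 4087, 4049 and 4005 CPM in PND 13, 3973, 3996 and 4162 CPM in PND 16 Small, 4601, 4582 and 4519 CPM in PND 16 Large and 4823, 4522 and 4669.7 CPM in PND 40. Every competent pool was above every non-competent pool. Zbed3 rose by 0.19 in competent vs. non-competent oocytes (SE 0.05, 95% CI 0.09 to 0.29, edgeR adjusted p = 0.00823), which is a rise of 14.2%. At PND 40 it rose by 0.21 both against PND 13 (edgeR adjusted p = 0.0133) and against PND 16 Small (edgeR adjusted p = 0.0141). In PND 16 Large vs. PND 13 it rose by 0.17 (edgeR adjusted p = 0.0384). The last did not pass without any single pool of the 6 compared (edgeR adjusted p = 0.0629 to 0.142). The PND 40 rises did not pass without PND 40 replicate 1 (0.19 in each, edgeR adjusted p = 0.0662 and 0.0699). With total counts alone as scaling, which moved the median of all genes from -0.04 to -0.13 in PND 16 Large vs. PND 13, the Zbed3 value there was 0.08 (edgeR adjusted p = 0.278). Its PND 40 vs. PND 13 value under that scaling was 0.14 (edgeR adjusted p = 0.0557).

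For Nlrp5 and Padi6, differences between neighbouring cohorts were smaller than those between PND 40 and PND 13. In PND 16 Small vs. PND 13, both non-competent, Nlrp5 differed by 0.01 (95% CI -0.38 to 0.41) and Padi6 by -0.23 (95% CI -0.55 to 0.09). In PND 16 Large vs. PND 16 Small, the same age at another weight, Nlrp5 was at -0.49 (95% CI -0.89 to -0.09, edgeR adjusted p = 0.0994; DESeq2 adjusted p = 0.0179). Without PND 16 Small replicate 2 that value was -0.63 (edgeR adjusted p = 0.044). In the same comparison Padi6 was at -0.14 (95% CI -0.45 to 0.18, edgeR adjusted p = 0.596), and at 0.07 without PND 16 Small replicate 1. In PND 40 vs. PND 16 Large, both competent, Nlrp5 was at -0.29 (95% CI -0.69 to 0.10, edgeR adjusted p = 0.383) and Padi6 at -0.38 (95% CI -0.70 to -0.06, edgeR adjusted p = 0.146). Fitted on these 6 pools alone, whose spread was small, the same differences had edgeR adjusted p of 0.00599 and 0.00101, so whether they passed depended on which pools shared the estimate of spread.

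In PND 40 vs. PND 13, 2 of 7 members were called, both lower, against 18.9% of all genes tested (12.6% lower). In PND 40 vs. PND 16 Small 1 of 7 was called, lower (17.2% of all genes, 10.3% lower). By edgeR 0 members were called in PND 16 Small vs. PND 13 (0.373% of all genes), PND 16 Large vs. PND 13 (13.3%), PND 16 Large vs. PND 16 Small (6.19%) and PND 40 vs. PND 16 Large (3.66%), with 2, 4, 3 and 4 members at an unadjusted p under 0.05, and DESeq2 called 0 in each of these as well. Where members were called, their share of the list lay near the share of all genes.

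By the edgeR adjusted p alone, 5 members passed in PND 40 vs. PND 13 (33.1% of all genes did), with Nlrp5, Padi6 and Khdc3 lower (16.7%) and Ooep and Zbed3 higher (16.3%). Likewise 5 passed in PND 40 vs. PND 16 Small (30.2%), with Nlrp2 in place of Khdc3 among those lower (15.7%) and the same 2 higher (14.5%). In competent vs. non-competent oocytes 4 passed (30.7%), namely Nlrp5 and Padi6 lower (16.5%) and Ooep and Zbed3 higher (14.2%). By edgeR, Zbed3 alone passed in PND 16 Large vs. PND 13 (25.6%, 12.6% higher) and Ooep alone in PND 40 vs. PND 16 Large (6.83%, 3.59% higher), while DESeq2 passed 3 members in each. By edgeR 0 passed in PND 16 Small vs. PND 13 (0.925%) and likewise 0 in PND 16 Large vs. PND 16 Small (12.3%), with 2 and 3 members at an unadjusted p under 0.05. DESeq2 passed 1 (Nlrp2) and 3 (Nlrp5, Ooep and Zbed3) there, and limma passed 0 and 2 (Ooep and Zbed3). The pairwise comparisons share cohorts and are not independent of each other. The median log2 fold change of the members was -0.22 in PND 40 vs. PND 13 (0.00 over all genes), -0.26 in PND 40 vs. PND 16 Small (-0.01) and -0.10 in competent vs. non-competent oocytes (0.00).

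In competent vs. non-competent oocytes, 2 of 7 members (Nlrp5 and Zbed3) had no overlap between the 6 pools of each group, against 14.7% of all genes. The members without overlap numbered 5 in PND 40 vs. PND 13 (50.8% of all genes), 6 in PND 40 vs. PND 16 Small (43.9%) and 6 in PND 40 vs. PND 16 Large (39.3%). The remaining pairs gave 2 in PND 16 Small vs. PND 13 (18.1%), 4 in PND 16 Large vs. PND 13 (45.5%) and 3 in PND 16 Large vs. PND 16 Small (31.5%).

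**Figure D3:**
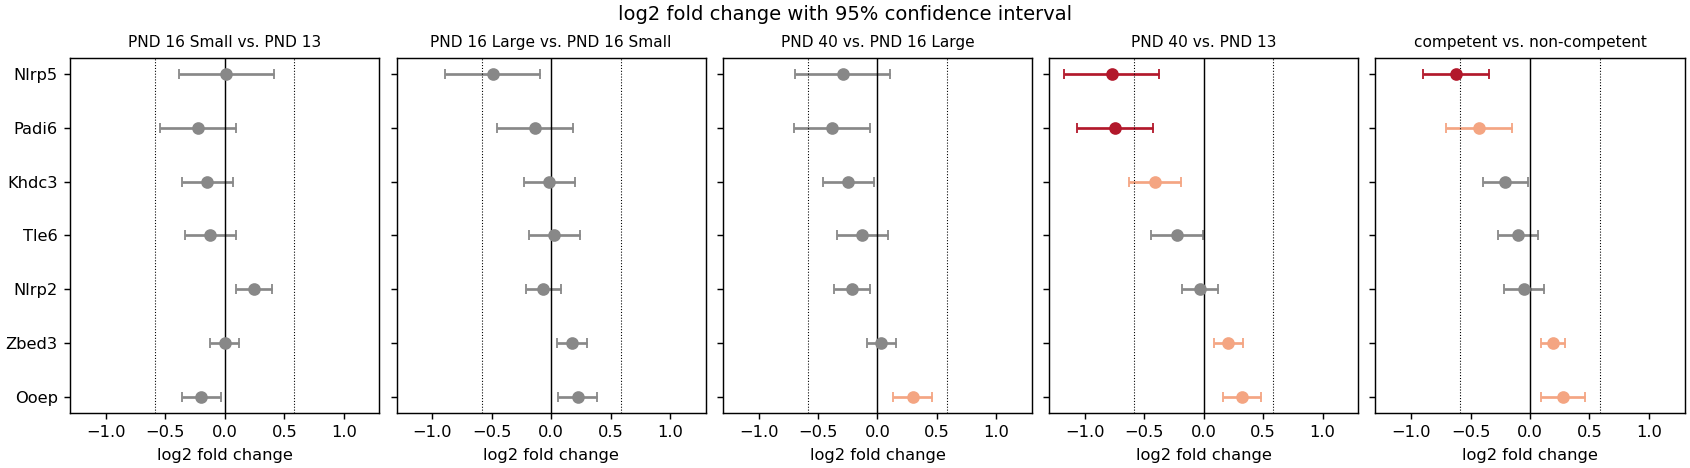
Log2 fold change of each gene with its 95% confidence interval in 5 of the 7 comparisons, dotted lines marking 1.5-fold, dark red for called, light red for an adjusted p of at most 0.05 under 1.5-fold and grey for the rest. Nlrp5 and Padi6 lie past the dotted line in PND 40 vs. PND 13, and every interval of PND 16 Small vs. PND 13 is grey.

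Ratios of 2 genes within a pool do not depend on how pools are scaled to each other. The ratio of Nlrp5 to Ooep counts was 2.79, 3.96 and 3.27 in the PND 13 pools, 4.42, 3.33 and 3.95 in PND 16 Small, 2.39, 2.22 and 2.54 in PND 16 Large and 1.48, 1.60 and 1.68 in PND 40. So for each Ooep read a PND 13 or PND 16 Small pool held more Nlrp5 reads than any competent pool. The mean ratio of PND 13 (3.34 ± 0.588) was 2.11 times that of PND 40 (1.58 ± 0.101). That was the highest such value of the 21 pairs of members. The pair joins the member that fell most to one that rose in these same data.

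Padi6 to Zbed3, the most abundant pair per kilobase, went from 1.25 ± 0.216 in PND 13 and 1.07 ± 0.262 in PND 16 Small to 0.861 ± 0.0552 in PND 16 Large and 0.647 ± 0.0497 in PND 40. Its competent pools (0.590 to 0.901) and non-competent pools (0.910 to 1.45) did not overlap, though they came close. By contrast Nlrp5 to Padi6 was 0.414 ± 0.0556, 0.498 ± 0.0554, 0.386 ± 0.0127 and 0.410 ± 0.00503 in the 4 cohorts in order of age and weight, with the competent pools inside the range of the others. Of the 21 pairs of members, 8 had no overlap between competent and non-competent pools, and 6 of these 8 included Nlrp5 or Padi6, as did 11 of all 21. Pairs that share a gene are not independent. For single genes the share without overlap was 14.7%, and no such share was computed for pairs of other genes.

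**Figure D4:**
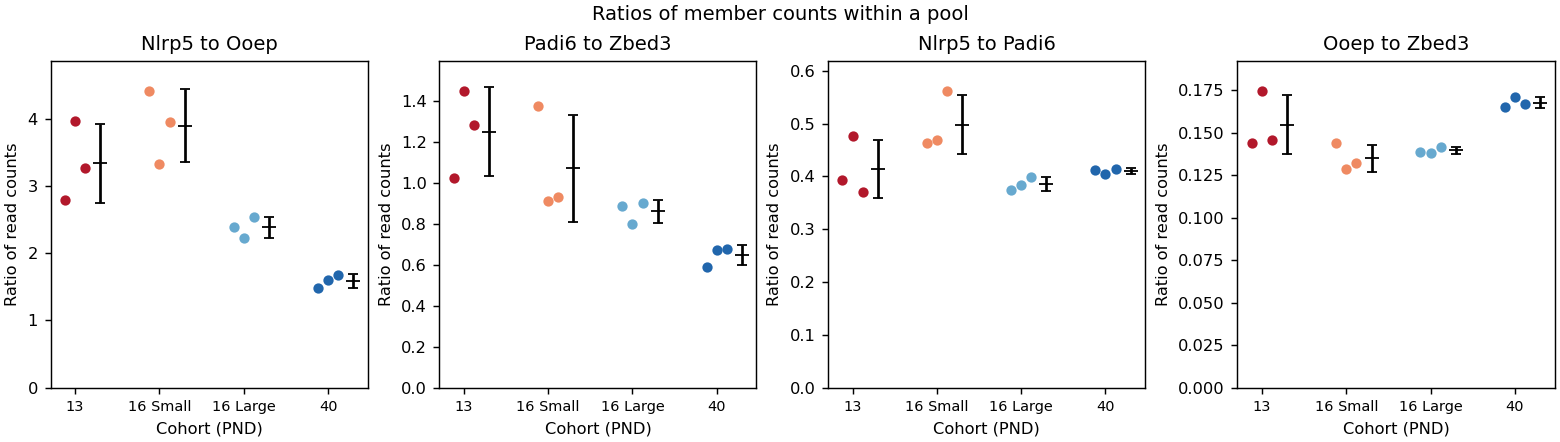
Ratio of read counts of 4 pairs of genes within each of the 12 pools, a point per pool, with the mean and SD of 3 pools beside each cohort. Nlrp5 to Ooep and Padi6 to Zbed3 are lower in every PND 16 Large and PND 40 pool, while Nlrp5 to Padi6 and Ooep to Zbed3 overlap between the groups.

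Pools of a cohort that differed in granulosa markers also differed in Nlrp5 and Padi6, among other genes. PND 13 replicate 2 and PND 16 Small replicate 1 had the lowest granulosa marker sum of their cohorts (130 and 185 CPM), within or near the range of the competent pools (144 to 185). They had the highest Nlrp5 and Padi6 levels of all 12 pools. Both were also the highest of their cohorts in Ooep, Tle6, Khdc3 and summed oocyte markers (17447 and 16603 CPM), but not in Nlrp2 or Zbed3. The pools richest in granulosa markers, PND 13 replicates 1 and 3 and PND 16 Small replicate 2 (400 to 461 CPM), had Nlrp5 levels of 1644, 1906 and 1707 CPM and Padi6 levels of 4176, 5132 and 3634 CPM. The richest of all, PND 13 replicate 3, thus had a Padi6 level above that of every pool but the pair named above. Leaving out PND 13 replicate 2 and PND 16 Small replicate 1 together, an alternative chosen after seeing the data, Nlrp5 was at -0.44 in competent vs. non-competent oocytes (edgeR adjusted p = 0.00856) and Padi6 at -0.28 (edgeR adjusted p = 0.110). In PND 40 vs. PND 13 the same omission gave -0.54 for Nlrp5 (edgeR adjusted p = 0.0015) and -0.65 for Padi6 (edgeR adjusted p = 0.000176). The part of somatic RNA in these differences was not tested.

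**Figure D5:**
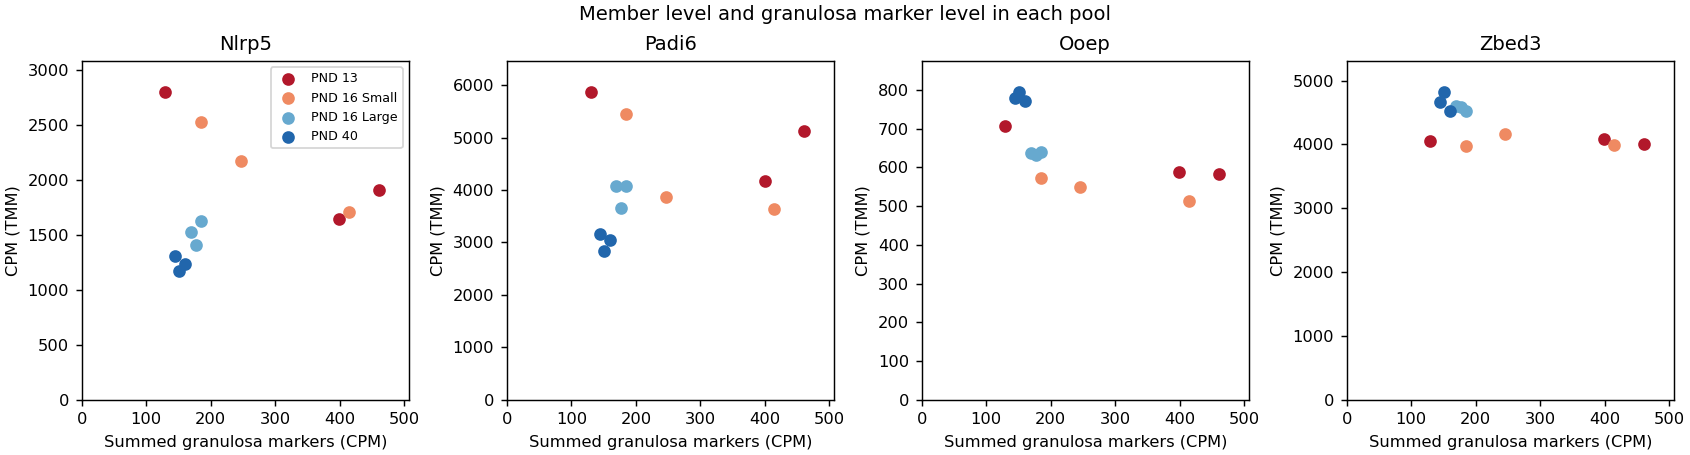
Level of 4 members (TMM-scaled CPM) against the summed level of 12 granulosa and cumulus cell markers (CPM) in each of the 12 pools, coloured by cohort. The competent pools lie between 144 and 185 CPM of granulosa markers, and the non-competent pools spread from 130 to 461 CPM. Of each sum, Nr5a2 gave 87.9 CPM or more.

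For each member, the genes whose pattern over the 12 pools was most like it were found by the root mean square difference of log2 CPM after centring each gene on its mean, among 7857 genes of at least 10 CPM. This is a description with no test, and all genes share the same libraries. For Nlrp5 the nearest were Smg5 (0.119) and Cbll1 (0.131). Smg5 went from 36.0 ± 5.98 CPM in PND 13 to 21.5 ± 1.21 CPM in PND 40. Among members, Padi6 was the nearest to Nlrp5 (rank 13, 0.170), while Ooep ranked 5692 (0.515).

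Padi6 was most like Hid1 (0.110) and Tyk2 (0.111), and Khdc3 and Nlrp5 ranked 38 and 76 for it. Ooep was most like Trim75 (0.0605) and Lysmd4 (0.0631), and Trim75 stood at 369 ± 29.8 CPM in PND 13 and 473 ± 9.54 CPM in PND 40. The nearest genes of Tle6 were Kat2a (0.0705) and Tbc1d7 (0.0754), and those of Khdc3 were Gpaa1 (0.0669) and Tbc1d7 (0.069). Nlrp2 was nearest to Rictor (0.0527) and to Nlrp4b (0.0528), another oocyte NLRP gene, and Zbed3 to Rab21 (0.0377) and Setdb1 (0.0429). Small values for Zbed3 go with its small spread and do not compare with those of Nlrp5.

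Genes that work beside the complex were counted in competent vs. non-competent oocytes from lists of named genes. Of 11 partners and lattice genes, 0 were called by edgeR, while 5 passed the adjusted p alone as higher (14.2% of all genes did) and 4 as lower (16.5%), all 9 with an unadjusted p under 0.05. The most abundant was Nlrp14, an oocyte NLRP gene, which fell from 7354 ± 702 to 5852 ± 500.1 CPM (log2 fold change -0.33, SE 0.08, edgeR adjusted p = 0.00555). The median log2 fold change of this list was 0.10, against 0.00 over all genes.

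Of 18 other maternal effect genes, 2 were called, both lower. By the edgeR adjusted p alone, however, 5 of the 18 passed as higher (14.2% of all genes did) and 2 as lower (16.5%). Ago2, an Argonaute protein of small RNA silencing, fell from 102 ± 17.4 to 53.5 ± 8.58 CPM (log2 fold change -0.94, SE 0.13, edgeR adjusted p = 0.000163), and Zfp36l2, an RNA-binding protein that promotes mRNA decay, fell from 52.7 ± 7.50 to 33.6 ± 5.31 CPM (-0.65, SE 0.12, edgeR adjusted p = 0.00121). The median of the list was 0.11. Of 8 oocyte transcription factors, 1 was called, Tbpl2, the oocyte form of the TATA-binding protein, which fell from 24.4 ± 4.86 to 13.3 ± 2.98 CPM (-0.87, SE 0.17, edgeR adjusted p = 0.00139). By the edgeR adjusted p alone, 1 of these 8 genes passed as higher and 3 as lower, and their median was -0.10. The shares called (0 of 11, 2 of 18 and 1 of 8) stand beside 15% over all genes.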

How the data were processed

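RNA was isolated from 12 pools of 18 to 45 oocytes, depleted of ribosomal RNA and made into directional libraries for short-read sequencing. Per the labels' processing notes, FastQC, STAR, HTSeq, DESeq2, DESeq and HOMER were used with build mm10, and the study names the Rosalind platform. Versions, roles and the strand setting of counting are not given in the sources used here. The authors deposited raw read counts per gene, and log2 values that equal log2(count divided by a size factor, plus 1), as tested on the values. Reads carried no molecular identifiers, so counting error understates molecular error.

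Counts were tested with edgeR 4.0.16 (R 4.3.3; filterByExpr minimum count 10, TMM, robust quasi-likelihood fit, Benjamini-Hochberg over 13943 genes). All 12 pools entered 1 model of 4 cohorts for the 6 pairwise comparisons, and a model of 2 groups of 6 pools for competent vs. non-competent. The latter counts the pools of 2 cohorts as replicates of a group, though competence was assigned by cohort. Genes were called at 1.5-fold or more with an adjusted p no higher than 0.05, as in the study. The SE was derived from the fold change and F statistic. The script was tested on simulated data. Alternatives were DESeq2 1.42.0, limma 3.58.1 on the deposited log2 values (pseudocounts 1 and 0.1), other scalings, no filter, only the cohorts compared, a replicate block and leaving out pools. No 2 pools agreed within sampling noise (chi-square per gene at least 7.97 within cohorts). Zar1 was listed more than once with identical counts and was counted once.

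Members and lists were chosen with earlier results of these data known. Named genes were the 7 members, the 2 called genes of each list with the largest change per direction (or the most abundant gene where none was called) and the 2 genes most like each member. Gene models were GENCODE M21, promoters RefSeq, and all 7 members matched both.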

Additional observations from a re-analysis of the deposited data

How the results depend on the processing

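The depth of 17671193 counts or more per pool gave each member 9281 reads or more, though without molecular identifiers these do not show how many molecules were sampled, and cohorts had 3 pools each. The number of members called was equal to that reported with DESeq2, RLE factors, total counts, no filter, both limma fits and only the cohorts compared. By the adjusted p alone the members passing were 1 in PND 16 Large vs. PND 13 (0 to 3 over all alternatives), 5 in PND 40 vs. PND 13 (4 to 6), 5 in PND 40 vs. PND 16 Small (3 to 6), 1 in PND 40 vs. PND 16 Large (0 to 5, the 5 with only the cohorts compared) and 4 in competent vs. non-competent (2 to 5), with 0 in PND 16 Small vs. PND 13 (0 to 1) and in PND 16 Large vs. PND 16 Small (0 to 3). Leaving out single pools gave 0 to 1 called in PND 16 Large vs. PND 13 (1 without PND 13 replicate 1, Nlrp5), 1 to 2 in PND 40 vs. PND 13, 0 to 1 in PND 16 Large vs. PND 16 Small (1 without PND 16 Small replicate 2, Nlrp5), 1 to 2 in PND 40 vs. PND 16 Small (2 without PND 16 Small replicate 2 or 3, Padi6 added) and 0 to 1 in competent vs. non-competent. Leaving out both PND 13 replicate 2 and PND 16 Small replicate 1, chosen after seeing the data, gave 1 in PND 40 vs. PND 13 and 0 in competent vs. non-competent. Where no cause is given, the cause was not tested.

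Signs reversed only among values near 0 that were not called. In PND 16 Small vs. PND 13, Zbed3 was 0.00208 with DESeq2, 0.00217 with RLE factors and 0.00189 in both limma fits (-0.035 to 0.00992 over single pools left out), and Nlrp5 was -0.0834 with total counts, -0.00866 with no filter and -0.00253 with only the cohorts compared (-0.14 to 0.25 over single pools). In PND 16 Large vs. PND 13, Ooep was -0.0697 with total counts (-0.023 to 0.105 over single pools), and Tle6 was 0.017 with both pools left out (-0.211 to 0.0169). In PND 16 Large vs. PND 16 Small, Khdc3 was 0.110 and Padi6 0.0788 with both pools left out (-0.0739 to 0.104 and -0.244 to 0.0721 over single pools), and Tle6 ran from -0.016 to 0.0594. Nlrp2 in PND 40 vs. PND 13 ran from -0.0698 to 0.000459.

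Pools of the same replicate number did not deviate together: the correlation of their deviations averaged -0.0516 (-0.442 to 0.0753, 0 of 18 over 0.1). For pools of different number it averaged 0.0266 (-0.324 to 0.458, 6 of 36 over 0.1). These values do not show whether any pools were handled together. With the replicate number as a block, 0, 0, 2, 0, 1, 0 and 1 members were called in the comparisons from PND 16 Small vs. PND 13 to competent vs. non-competent, and Nlrp5 was at -0.62 in the last.

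Counts over all genes moved as well, though they do not compare in scale with counts out of 7 members. In competent vs. non-competent 2087 genes were called, and 1703 to 2231 without single pools, where the members called ran from 0 to 1. PND 16 Small vs. PND 13 called 52 genes (25 higher), but 357 with DESeq2, 25 with total counts (24% higher), 10 with the block, 2 with only the cohorts compared, 4 to 817 without single pools (817 without PND 16 Small replicate 1) and 756 without both pools. PND 40 vs. PND 16 Large called 510, but 782 with DESeq2, 1081 with only the cohorts compared, 816 without both pools and as few as 246 without a single pool. PND 16 Large vs. PND 16 Small called 863, but 475 with only the cohorts compared and 333 at the lowest without a pool, and PND 16 Large vs. PND 13 called 1858, with 1154 at the lowest.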

Other observations

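Padi6, Tle6 and Khdc3 have relatives that are not part of the complex, and these were counted in competent vs. non-competent oocytes in the same fit. Of the other peptidylarginine deiminases, 3 of 4 passed the filter on low counts and 0 were called by edgeR (0 at an unadjusted p under 0.05, and 0 of them passed by the adjusted p alone). The most abundant, Padi2, stood at 4.92 ± 1.23 CPM in competent and 5.70 ± 2.01 CPM in non-competent oocytes (log2 fold change -0.21, SE 0.25, edgeR adjusted p = 0.553).

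Among the TLE corepressors, 5 were tested and 3 were called lower, against 11.2% of all genes tested. The list held 6 symbols, but Tle5, absent from the data, is another name of Aes, which was tested. Tle3 (from 0.988 ± 0.676 to 0.216 ± 0.244 CPM, log2 fold change -2.15, edgeR adjusted p = 0.044) and Tle2 (from 1.45 ± 1.40 to 0.402 ± 0.178 CPM, -1.84, edgeR adjusted p = 0.0327) were at very low levels in both groups. Tle4 was the other, chosen for naming after its value was seen, at 166 ± 12.4 and 110.2 ± 17.7 CPM (-0.59, edgeR adjusted p = 0.000531). The number called went from 0 (without PND 13 replicate 3, PND 40 replicate 1 or PND 40 replicate 2) to 3 as single pools were left out.

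Of 4 genes of KH-domain families that neighbour Khdc3 or Ooep by kind, 2 were called lower, against the same 11.2%. Dppa5a fell from 91.0 ± 12.7 to 55.0 ± 14.5 CPM (log2 fold change -0.73, SE 0.16, edgeR adjusted p = 0.00355), and Khdc1a from 132 ± 10.5 to 80.6 ± 14.5 CPM (-0.71, SE 0.10, edgeR adjusted p = 0.000262). In the same comparison Khdc3 was at -0.21 (edgeR adjusted p = 0.0893) and Ooep at 0.28 (edgeR adjusted p = 0.0257), and differences between these genes were not tested.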
